A study of Homo sapiens with 9 samples.

Results

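The nuclear-encoded subunits of respiratory chain complexes I to IV were examined in RNA sequencing libraries of lung cancer cells treated with the compounds RSGL or BSGL. Subunits were chosen by name and position alone. They are the genes typed as protein-coding, placed on a nuclear chromosome, and named NDUFA, NDUFB, NDUFC, NDUFS or NDUFV with a number, SDHA to SDHD, UQCR, CYC1, or COX4 to COX8 with a letter. This gave 64 of the 45754 genes in the table, or 64 of 18751 protein-coding genes on nuclear chromosomes. They comprise 35 genes of complex I, 4 of complex II, 9 of complex III and 16 of complex IV.

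The study had 3 groups of 3 libraries: cells given 10 µM RSGL for 24 h, cells given 10 µM BSGL for 24 h, and control cells given 0.1% DMSO, the solvent, for 24 h. All 9 libraries carry the cell line label H441, a lung adenocarcinoma line. A genotype tag instead names A549 for the RSGL libraries and H460 for the BSGL and control libraries, both being other lung cancer lines, so the compound RSGL and this tag cannot be told apart. Labels do not say that the replicates were separate cultures. P-values therefore measure the spread between these libraries, which may be technical. RNA came from whole cultures, in which fewer cells of a type and less RNA per cell cannot be told apart.

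The respiratory chain passes electrons from nutrients to oxygen in the inner mitochondrial membrane. Complex I takes them from NADH and complex II, which is also an enzyme of the citric acid cycle, from succinate. Coenzyme Q carries them to complex III, and cytochrome c carries them on to complex IV, which reduces oxygen. Complexes I, III and IV pump protons, and ATP synthase uses the resulting gradient. Complexes I, III and IV each combine subunits from the nucleus with a core made from mitochondrial DNA, whereas every subunit of complex II comes from the nucleus. Transcription factors known to act on many of the nuclear genes are NRF1, the ETS-family factor GABP and YY1, with coactivators of the PGC-1 family.

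The libraries held 16720414 to 18738947 fragments in genes, recovered from the deposited values, and 12213 to 12338 genes reached 1 FPKM (fragment counts corrected for gene length and library size). Of 9 lung lineage genes that H441 is known to express, 0 reached 1 FPKM in at least 3 libraries, and their summed level was 1.06 to 1.20 FPKM in RSGL, 1.36 to 1.59 FPKM in BSGL and 1.46 to 2.29 FPKM in control libraries. Of 5 epithelial genes 4 passed that filter, with sums of 740.9 to 778.5 FPKM in RSGL, 1056 to 1105 FPKM in BSGL and 1065 to 1093 FPKM in control libraries. The sum hides opposite directions, since against control KRT19 was higher in RSGL and 3 of the 4 were lower. Each had an adjusted p under 0.05 in limma, as did 54.8% of all genes tested. The filter was passed by 3 of 7 fibroblast genes and 2 of 5 macrophage genes, and by 0 of 5 endothelial, 0 of 5 T cell, 0 of 5 muscle and 0 of 5 testis genes. COL1A1 of the fibroblast genes and CD14 of the macrophage genes passed only through BSGL and control libraries. Summed fibroblast genes stood at 7.90 to 8.16 FPKM in RSGL, 10.3 to 11.1 FPKM in BSGL and 9.93 to 11.3 FPKM in control libraries. Summed macrophage genes, nearly all of it the lysosomal gene CD68, which epithelial cells also express, stood at 116.5 to 121.5 FPKM in RSGL, 46.6 to 47.8 FPKM in BSGL and 42.2 to 42.7 FPKM in control libraries. CD14 went the other way and was lower in RSGL than in control libraries, by -1.22 in log2(FPKM + 1). The part of these genes in the results was not tested.

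Promoter sequences are shown for 3 of the 4 complex II genes, because these genes changed in opposite directions under RSGL. RefSeq windows (GRCh38.p14) of 300 bases, with 250 before and 50 from the annotated gene start, were found for 52 of the 64 genes, in 61 windows. Each was searched on both strands for the palindromic core motif of NRF1, for CCGGAAG (the ETS family, which includes GABPA) and for AAGATGGC (YY1). The windows run 5′ to 3′ on the gene's strand, and capitals mark a match. SDHA lies on the plus strand (chr5:218070-218369), SDHB on the minus strand (chr1:17053983-17054282) and SDHD on the plus strand (chr11:112086623-112086922).
SDHA: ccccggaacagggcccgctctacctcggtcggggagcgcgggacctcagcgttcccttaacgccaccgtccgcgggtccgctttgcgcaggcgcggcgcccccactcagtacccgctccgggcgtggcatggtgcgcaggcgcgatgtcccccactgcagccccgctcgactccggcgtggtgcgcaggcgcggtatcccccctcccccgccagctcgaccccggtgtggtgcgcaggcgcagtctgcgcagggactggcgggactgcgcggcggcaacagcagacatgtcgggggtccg
SDHB: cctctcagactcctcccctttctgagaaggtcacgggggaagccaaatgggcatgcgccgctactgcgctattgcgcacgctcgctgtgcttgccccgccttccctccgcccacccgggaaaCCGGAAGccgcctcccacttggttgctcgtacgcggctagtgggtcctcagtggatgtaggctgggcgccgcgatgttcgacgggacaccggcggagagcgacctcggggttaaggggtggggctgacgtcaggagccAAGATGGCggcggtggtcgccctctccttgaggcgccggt
SDHD: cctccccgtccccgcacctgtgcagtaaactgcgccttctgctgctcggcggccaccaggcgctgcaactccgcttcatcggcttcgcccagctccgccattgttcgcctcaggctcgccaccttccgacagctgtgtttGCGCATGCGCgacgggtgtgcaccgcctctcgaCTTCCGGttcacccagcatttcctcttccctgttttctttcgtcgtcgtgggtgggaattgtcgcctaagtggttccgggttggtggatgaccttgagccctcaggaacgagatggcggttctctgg

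Positions here count from the RefSeq start that each window uses. The deposited annotation places the starts of SDHA, SDHB and SDHD elsewhere in these windows, at 218223, 17054170 and 112086824. The SDHB window held the ETS letters from 128 bases before the gene start and the YY1 letters from 10 bases after it. The SDHD window held the NRF1 letters, which read the same on both strands, from 110 bases before the start, and the ETS letters on the minus strand from 77 bases before it. In the SDHA window none of the 3 sets of letters was found. Only exact letters were searched, so near matches were not counted, such as gcgcaggcgc in the SDHA window, which resembles the NRF1 letters. Over all 61 windows of the subunits, the NRF1 letters stood in 4.92%, against 1.24% of all 35116 promoter windows. The ETS letters stood in 23.0%, against 10.3% of all windows, and the YY1 letters in 11.5%, against 2.89%. NRF1 letters were in the windows of NDUFA8, NDUFB4 and SDHD. A match is a description of the letters in the window and not of a bound site.

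Most subunits were strongly expressed. Of the 64 genes, 58 passed the filter of 1 FPKM in at least 3 libraries: 33 of complex I, 4 of complex II, 9 of complex III and 12 of complex IV. Their median control level was 70.8 FPKM, against 6.91 FPKM over all 12775 genes that passed, and 55 of the 58 lay above that median. Complex IV had the highest median level in control cells, 184.0 FPKM, followed by complex III with 83.8, complex I with 59.7 and complex II with 40.8 FPKM. COX7C, a small subunit of complex IV, was highest, with 519.1, 582.6 and 636.0 FPKM in RSGL, 628.8, 560.6 and 545.8 FPKM in BSGL, and 488.2, 453.2 and 630.0 FPKM in control libraries. The groups overlapped for COX7C.

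Summed over the 64 genes, the level was 6186 ± 381 FPKM in RSGL, 6432 ± 203 FPKM in BSGL and 6153 ± 502 FPKM in control libraries (SD, n = 3 each). These sums overlapped between the groups. Complex I summed to 2273 ± 167 FPKM in RSGL, 2397 ± 93.6 FPKM in BSGL and 2320 ± 197 FPKM in control libraries. Complex II summed to 180.8 ± 4.27 FPKM in RSGL, 183.4 ± 4.51 FPKM in BSGL and 180.1 ± 6.93 FPKM in control libraries. For each of the 4 complexes the RSGL and BSGL means lay within the range of the control libraries. Complex III summed to 931.0 ± 48.1 FPKM in RSGL, 993.1 ± 23.1 FPKM in BSGL and 951.9 ± 68.6 FPKM in control libraries, and complex IV to 2800 ± 166 FPKM in RSGL, 2859 ± 89.9 FPKM in BSGL and 2701 ± 235 FPKM in control libraries.

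**Figure D1:**
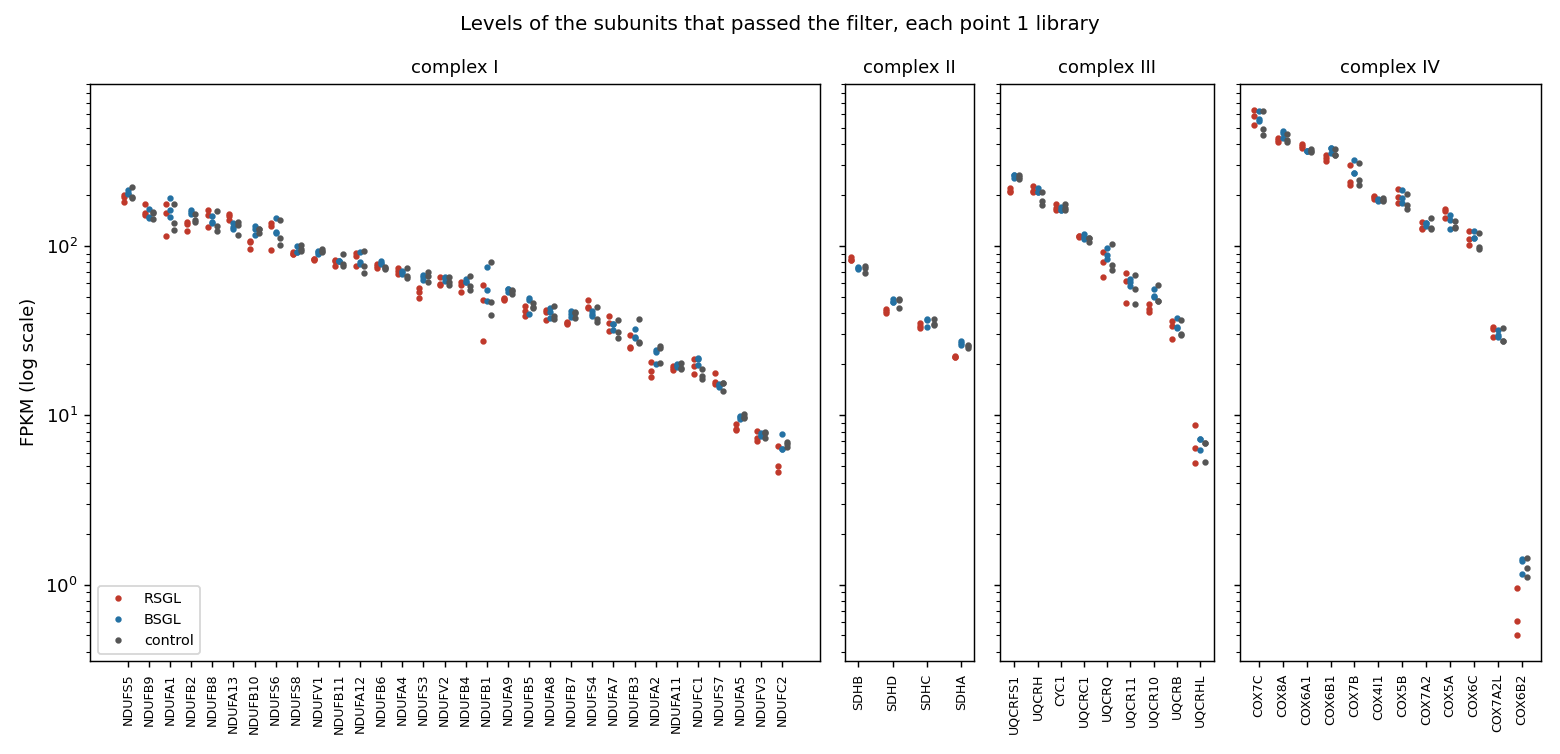
FPKM on a log scale of 57 of the 58 subunits that passed the filter, by complex and ordered by control level, with each point 1 library of RSGL (left), BSGL (middle) or control (right). Levels run from about 1 FPKM for COX6B2 to over 600 FPKM for COX7C, and the 3 groups lie close together for most genes.

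The comparison of RSGL with control asks whether the subunits' transcripts differed between these libraries. In it the compound and the genotype tag cannot be told apart. In limma with Benjamini-Hochberg adjustment over all 12775 genes, 18 of the 58 subunits (31.0%) had an adjusted p under 0.05, against 54.8% of all genes tested. Of the 18, 6 rose (27.2% of all genes did) and 12 fell (27.6% of all genes did). The share among the subunits was thus below the background. The 12 include COX6B2, which passed the filter only through libraries where it is high, and 11 fell without it. Differences were small, from -0.43 to 0.24 on the scale of log2(FPKM + 1), on which all differences here are given and which understates changes of genes near 1 FPKM. The median over the 58 was -0.02, against -0.0009 over all genes, and it was 0.02 without RSGL replicate 1, 0.04 without control replicate 3 and -0.07 without RSGL replicate 3. The RSGL and control libraries did not overlap for 18 subunits (31.0%, against 61.2% of all genes), with 6 higher (30.4% of all genes) and 12 lower (30.8%). The number called higher by limma was 1 without RSGL replicate 3, 2 without control replicate 1 or 2 and 9 without control replicate 3, while 10 to 13 were called lower whichever library was left out.

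**Figure D2:**
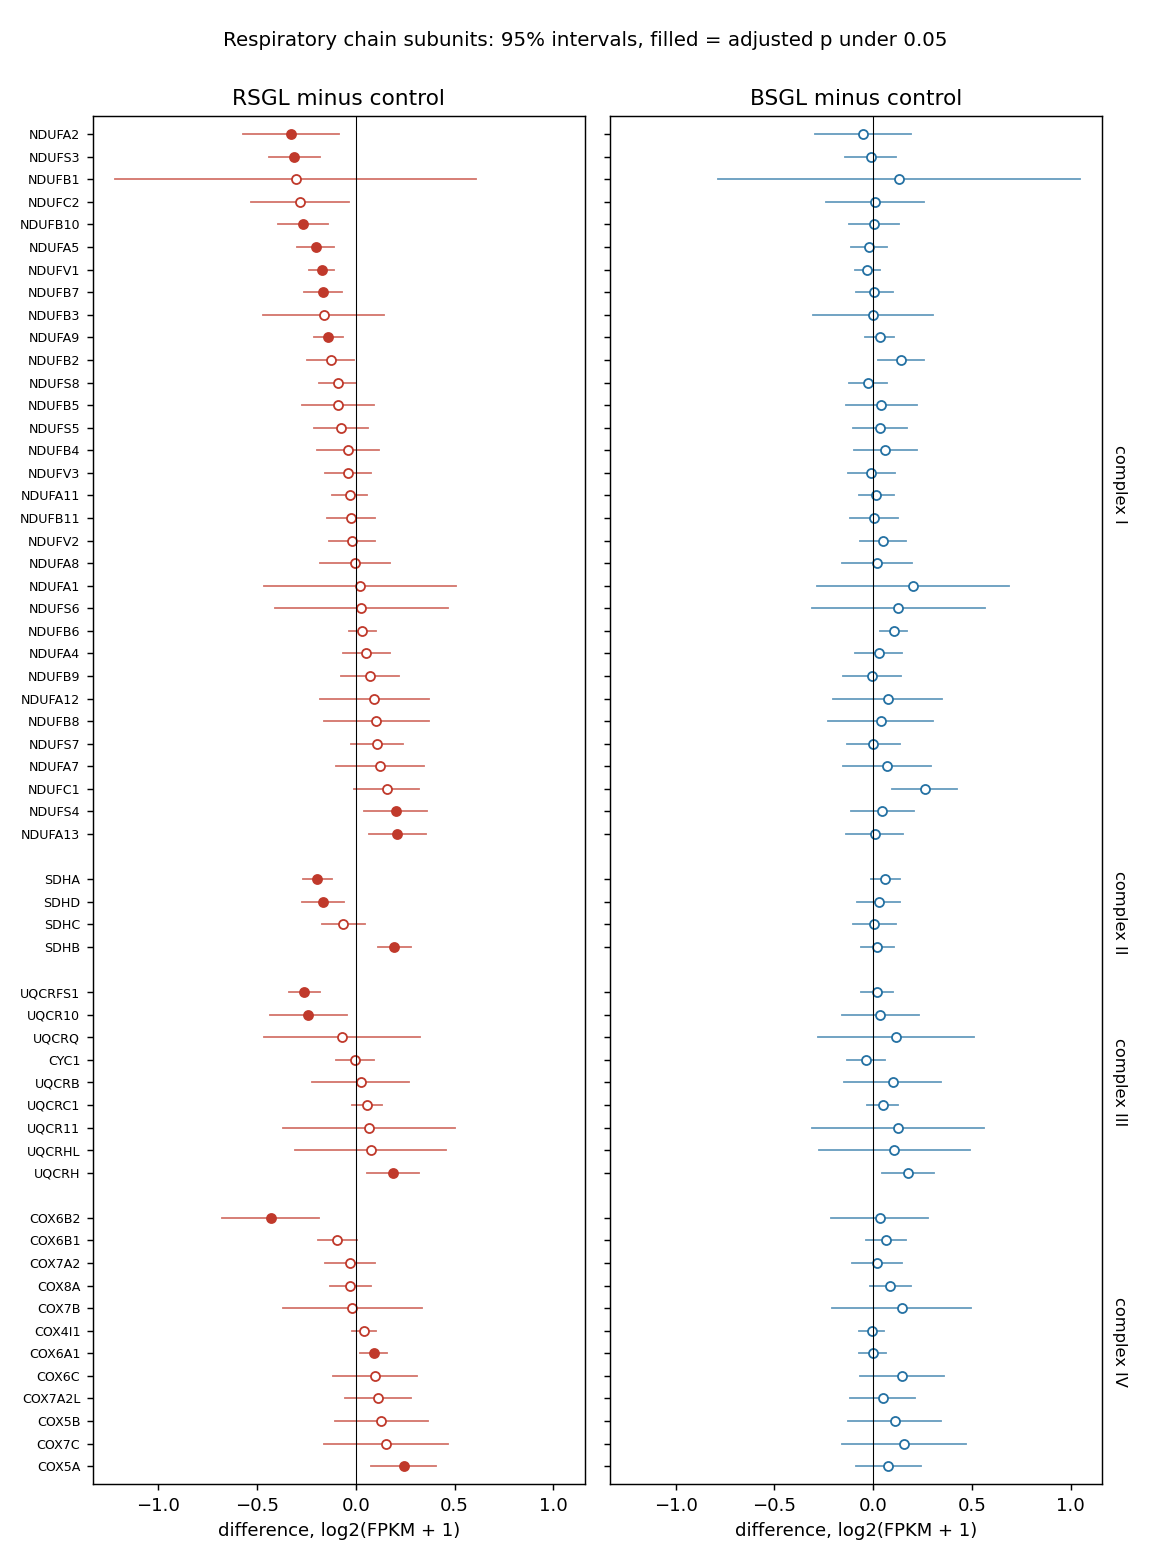
Differences of RSGL minus control (left) and BSGL minus control (right) in log2(FPKM + 1), with 95% intervals, for 57 of the 58 subunits that passed the filter, grouped by complex. Filled points mark the 18 subunits with an adjusted p under 0.05 under RSGL, and no point is filled under BSGL.

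Complex II was the smallest complex and had 3 of its 4 genes called under RSGL, 1 higher and 2 lower, against 54.8% of all genes tested. SDHB, the iron-sulfur subunit that relays electrons from the catalytic subunit to coenzyme Q, had 82.4, 82.6 and 86.1 FPKM in RSGL, 73.7, 73.0 and 75.5 FPKM in BSGL, and 69.4, 73.7 and 75.9 FPKM in control libraries. Each RSGL library lay above all 6 others. SDHB rose by 0.20 under RSGL (SE 0.0378, limma adjusted p = 0.00158). SDHA, the flavoprotein subunit that oxidises succinate, had 22.3, 21.9 and 22.2 FPKM in RSGL, 25.9, 26.6 and 27.4 FPKM in BSGL, and 25.8, 25.6 and 25.0 FPKM in control libraries. It fell by 0.19 (SE 0.0329, limma adjusted p = 0.000696), and again the RSGL libraries overlapped none of the others. Transcribed pseudogene copies of SDHA exist, and reads shared with them make its level uncertain.

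The membrane anchors of complex II, SDHC and SDHD, bind heme and coenzyme Q. SDHD had 41.0, 40.0 and 42.5 FPKM in RSGL, 46.6, 46.4 and 48.6 FPKM in BSGL, and 42.9, 48.5 and 47.7 FPKM in control libraries. It fell by 0.17 (SE 0.0478, limma adjusted p = 0.0144). The SDHD call rests on the libraries included, since the adjusted p was 0.0524 without RSGL replicate 2 and 0.0568 without control replicate 2 (0.00162 to 0.0568 over 24 alternatives). SDHC had 32.9, 33.5 and 35.0 FPKM in RSGL, 33.2, 36.5 and 36.8 FPKM in BSGL, and 34.2, 34.8 and 36.9 FPKM in control libraries, and its groups overlapped. Its difference was -0.06, with a 95% interval of -0.17 to 0.05. SDHC overlaps CFAP126 on the opposite strand, a gene at 8.64 FPKM in RSGL and 8.51 FPKM in control libraries. The promoters with exactly matched letters belong to SDHB, which rose, and to SDHD, which fell, and near matches were not counted. The names SDHC and SDHD were chosen after their values were seen.

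**Figure D3:**
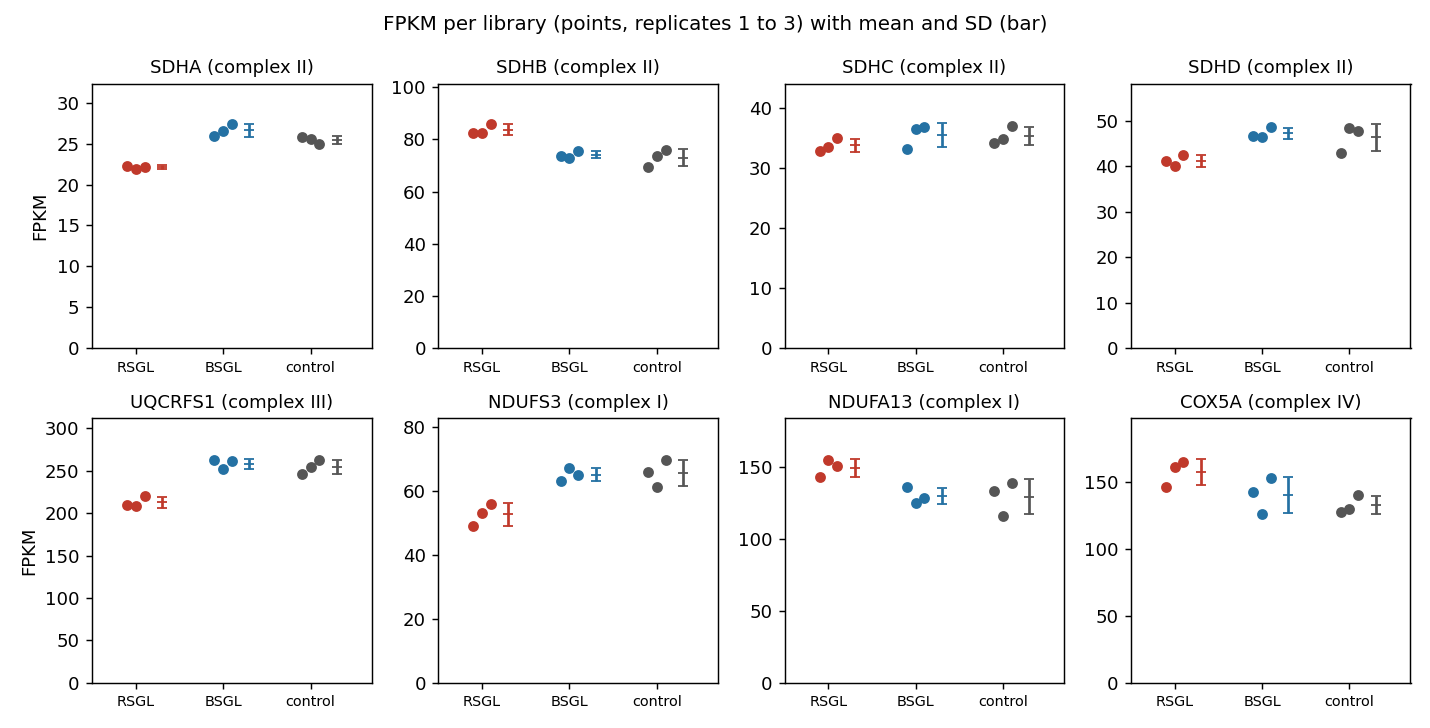
FPKM of 8 subunits in each library (points) with the mean and SD of 3 libraries (bar), for RSGL, BSGL and control from left to right, on axes that start at 0. SDHB, NDUFA13 and COX5A are higher in RSGL than in control libraries without overlap. SDHA, SDHD, UQCRFS1 and NDUFS3 are lower without overlap, and SDHC overlaps.

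In complex I, 9 of 33 genes were called under RSGL (27.3%, against 54.8% of all genes), 2 higher and 7 lower, with a median difference of -0.03. NDUFV1, the core subunit that binds NADH and flavin, had 82.2, 83.4 and 83.1 FPKM in RSGL, 93.0, 89.6 and 92.4 FPKM in BSGL, and 91.7, 93.4 and 95.8 FPKM in control libraries. The RSGL libraries lay close together and below all others. NDUFV1 fell by 0.17 (SE 0.0289, limma adjusted p = 0.000631). NDUFS3, a core subunit of the arm that faces the matrix, had 49.0, 53.3 and 56.1 FPKM in RSGL, 63.1, 67.3 and 65.1 FPKM in BSGL, and 66.2, 61.4 and 69.7 FPKM in control libraries. NDUFS3 fell by 0.31 (SE 0.0577, limma adjusted p = 0.00121). It overlaps KBTBD4 on the opposite strand, which stood at 3.85 FPKM in RSGL and 5.53 FPKM in control libraries.

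NDUFS7, NDUFS8 and NDUFV2, further core subunits of complex I, were not called and differed by 0.11, -0.09 and -0.02. NDUFS8 did not overlap between RSGL and control libraries and had an adjusted p of 0.0935 in limma. Among accessory subunits, which surround the core, NDUFB10 fell by 0.27, NDUFA5 by 0.20, NDUFB7 by 0.17 and NDUFA9 by 0.14. For these 4 the RSGL libraries lay below all control libraries, and the limma adjusted p was at most 0.00813. These accessory subunits and NDUFS3 were named after their values were seen.

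NDUFA2, an accessory subunit of the matrix arm, had the largest fall in complex I, with 20.5, 18.3 and 16.8 FPKM in RSGL, 20.2, 24.4 and 23.5 FPKM in BSGL, and 24.8, 25.5 and 20.4 FPKM in control libraries. The groups overlapped, since control replicate 3 was slightly below RSGL replicate 1. NDUFA2 fell by 0.33 (SE 0.105, limma adjusted p = 0.0274). That call was lost without RSGL replicate 2 (0.0733) or 3 (0.0903), without control replicate 1 (0.0875) or 2 (0.0882), with the gene-length trend removed (0.0845) and with no filter (0.0608), in a range of 0.00574 to 0.0903. It overlaps TMCO6 on the opposite strand, at 4.66 FPKM in RSGL and 4.81 FPKM in control libraries.

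NDUFA13, also known as GRIM-19, an accessory subunit required for assembly, had the largest rise in complex I. It had 143.1, 155.1 and 151.1 FPKM in RSGL, 136.5, 125.2 and 128.9 FPKM in BSGL, and 133.5, 116.3 and 139.3 FPKM in control libraries. Every RSGL library was above every other library. NDUFA13 rose by 0.21 (SE 0.0645, limma adjusted p = 0.0200), and the adjusted p was 0.0696 without RSGL replicate 2, 0.0576 without RSGL replicate 3 and 0.0592 with no filter (0.00362 to 0.0696 over the alternatives). NDUFS4, an accessory subunit mutated in Leigh syndrome, was the other complex I gene that rose, by 0.20 (SE 0.071, limma adjusted p = 0.0347). NDUFS4 had 43.4, 43.0 and 47.6 FPKM in RSGL, 41.5, 38.8 and 39.7 FPKM in BSGL, and 37.0, 35.8 and 43.6 FPKM in control libraries, with RSGL and control overlapping. Its call was lost under 8 of 24 alternatives, among them leaving out RSGL replicate 1 (0.0546) or 3 (0.118), BSGL replicate 3 (0.0501), or control replicate 1 (0.110) or 2 (0.120), in a range of 0.00134 to 0.120.

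NDUFA4 was assigned to complex I by its name, although it is now known as a subunit of complex IV and carries the RefSeq symbol COXFA4. It had 68.1, 71.0 and 74.5 FPKM in RSGL, 68.5, 69.7 and 71.3 FPKM in BSGL, and 66.8, 64.7 and 74.5 FPKM in control libraries. Its difference under RSGL was 0.05, with an interval of -0.07 to 0.17. NDUFA4L2, its hypoxia-induced paralog, did not pass the filter and was not tested. It had 0.944, 1.33 and 0.831 FPKM in RSGL, 0.530, 0.516 and 0.445 FPKM in BSGL, and 0.447, 0.644 and 0.665 FPKM in control libraries, from 17 to 47 fragments. All 3 RSGL libraries were above the other 6. NDUFA4L2 overlaps SHMT2 on the opposite strand, which stood at 85.3 FPKM in RSGL and 61.8 FPKM in control libraries, and reads of the 2 genes could not be separated without knowing the strand setting.

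In complex III, 3 of 9 genes were called under RSGL (33.3%, against 54.8% of all genes), 1 higher and 2 lower. UQCRFS1, the Rieske iron-sulfur protein that takes electrons from coenzyme Q, had 209.8, 208.3 and 220.4 FPKM in RSGL, 262.7, 251.7 and 261.1 FPKM in BSGL, and 246.8, 254.8 and 263.3 FPKM in control libraries. The highest RSGL library was below the lowest of the other 6. UQCRFS1 fell by 0.26 (SE 0.0355, limma adjusted p = 0.000169), the smallest adjusted p among the 58 subunits. UQCRH, the hinge protein beside cytochrome c1, had 207.8, 211.2 and 225.1 FPKM in RSGL, 221.2, 207.5 and 208.9 FPKM in BSGL, and 175.6, 183.3 and 206.8 FPKM in control libraries. RSGL and BSGL overlapped for UQCRH, and both lay above the control libraries.

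UQCRH rose by 0.19 under RSGL (SE 0.0588, limma adjusted p = 0.0208). The UQCRH call was lost without RSGL replicate 3 (0.0766), without control replicate 1 (0.0774) or 2 (0.0664) and with no filter (0.0615), in a range of 0.00123 to 0.0774. UQCRHL is a near-identical intronless copy, at 6.82 FPKM in RSGL and 6.33 FPKM in control libraries, so levels of both are uncertain. UQCR10, a small subunit, fell by 0.24 (SE 0.0861, limma adjusted p = 0.0409), with 40.9, 42.6 and 45.3 FPKM in RSGL, 55.9, 50.6 and 50.1 FPKM in BSGL, and 47.3, 47.2 and 58.8 FPKM in control libraries. Its call was lost under 8 alternatives, among them leaving out RSGL replicate 1 (0.121) or 2 (0.0992), BSGL replicate 2 (0.0563) or 3 (0.0546), or control replicate 3 (0.0714), in a range of 0.00642 to 0.121. UQCR10 was named after its values were seen.

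CYC1 and UQCRC1, the other catalytic or core subunits of complex III among the nuclear-encoded subunits tested, showed no call. CYC1, cytochrome c1, had 162.9, 176.8 and 166.7 FPKM in RSGL, 162.9, 169.6 and 162.3 FPKM in BSGL, and 168.2, 162.3 and 177.7 FPKM in control libraries, with full overlap. Its difference under RSGL was -0.01, with an interval of -0.10 to 0.09. UQCRC1, a core subunit without a redox centre, had 114.0, 114.1 and 112.8 FPKM in RSGL, 109.2, 112.5 and 117.5 FPKM in BSGL, and 111.1, 106.1 and 111.0 FPKM in control libraries. RSGL and control did not overlap for UQCRC1, but the difference of 0.06 had an interval of -0.02 to 0.13.

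In complex IV, 3 of 12 genes were called under RSGL (25.0%, against 54.8% of all genes), 2 higher and 1 lower. The lower one is COX6B2, and 0 were lower without it. COX5A, a subunit on the matrix side, had 146.5, 161.3 and 164.9 FPKM in RSGL, 142.7, 126.3 and 153.0 FPKM in BSGL, and 128.0, 130.1 and 140.7 FPKM in control libraries. RSGL lay above control without overlap and overlapped BSGL. COX5A rose by 0.24 (SE 0.073, limma adjusted p = 0.0189), the largest rise among the 58 subunits. The COX5A call was lost without RSGL replicate 2 (0.0619) or 3 (0.0671), without control replicate 1 (0.0654) or 2 (0.0597) and with no filter (0.0518), in a range of 0.00286 to 0.0671. COX4I1, the subunit through which ATP inhibits the complex, had 194.8, 188.3 and 195.9 FPKM in RSGL, 185.7, 184.9 and 188.4 FPKM in BSGL, and 183.9, 187.7 and 190.6 FPKM in control libraries. Its difference of 0.04 had an interval of -0.02 to 0.11.

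Complex IV has tissue isoforms of several subunits, and the widely expressed forms predominated in all 9 libraries. COX4I2, the hypoxia-induced form of COX4I1, was at 0 in 8 libraries and at 0.0584 FPKM, 1 fragment, in control replicate 3, while 3 fragments, the limit a count of 0 allows, correspond to 0.166 to 0.186 FPKM. COX6A2, the heart and muscle form of COX6A1, was at 0 in all 9 libraries, which allows up to 0.340 to 0.381 FPKM. COX7B2, a testis form of COX7B, was at 0 in 6 libraries and at most 0.100 FPKM in the others. These limits cover counting error only. COX7A1, the muscle form of COX7A2, had 0.464, 0.954 and 1.08 FPKM in RSGL, 0.393, 0.705 and 0.815 FPKM in BSGL, and 0.546, 0.468 and 0.621 FPKM in control libraries, from 6 to 15 fragments. None of these 4 passed the filter.

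COX6A1, the widely expressed isoform, had 387.7, 376.2 and 399.9 FPKM in RSGL, 362.4, 365.5 and 362.8 FPKM in BSGL, and 356.7, 362.7 and 372.9 FPKM in control libraries. RSGL overlapped neither BSGL nor control, and the gap to the highest control library was small beside the spread within RSGL. COX6A1 rose by 0.09 (SE 0.0308, limma adjusted p = 0.0298), a call lost under 10 of 24 alternatives with adjusted p between 0.0103 and 0.176. These included leaving out RSGL replicate 1 (0.0662) or 3 (0.100), or control replicate 1 (0.102) or 2 (0.0779), and scaling to a common sum, with which its difference was 0.05.

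COX6B2, the testis form of COX6B1, had 0.607, 0.504 and 0.955 FPKM in RSGL, 1.38, 1.42 and 1.15 FPKM in BSGL, and 1.44, 1.26 and 1.11 FPKM in control libraries, from 15 to 46 fragments. Each RSGL library was below 1 FPKM and each of the others above it, so COX6B2 passed the filter only through BSGL and control libraries, and its test after that filter is no support for a difference. Its difference from control was -0.43, and with all genes kept, where the filter plays no part, the limma adjusted p was 0.0210. The size depends on the pseudocount, and with 0.1 in place of 1 the difference was -0.83. The 5 testis marker genes were at 0 in all libraries. COX6B1 had 318.0, 332.1 and 342.9 FPKM in RSGL, 376.2, 354.0 and 378.7 FPKM in BSGL, and 342.5, 344.6 and 372.9 FPKM in control libraries. RSGL replicate 3 lay just above the lowest control library, and the difference of -0.09 had an adjusted p of 0.102 in limma.

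COX7A2 had 127.1, 126.3 and 138.0 FPKM in RSGL, 136.7, 131.0 and 136.8 FPKM in BSGL, and 125.8, 128.1 and 145.5 FPKM in control libraries. COX7A2L, a related protein known for assembling complexes III and IV into supercomplexes, had 29.1, 32.2 and 33.2 FPKM in RSGL, 31.6, 28.8 and 29.8 FPKM in BSGL, and 27.2, 27.5 and 32.5 FPKM in control libraries. Neither was called, and the groups overlapped for both. Without control replicate 3, COX7A2L reached an adjusted p of 0.0249 in limma with a difference of 0.19, against 0.11 with all libraries and 0.0249 to 0.508 over the alternatives. COX7B had 230.0, 238.7 and 300.8 FPKM in RSGL, 321.3, 268.4 and 268.1 FPKM in BSGL, and 228.8, 243.5 and 307.5 FPKM in control libraries. COX8A, the widely expressed form of subunit VIII, had 412.4, 432.7 and 422.0 FPKM in RSGL, 433.1, 465.6 and 474.3 FPKM in BSGL, and 424.7, 411.7 and 455.5 FPKM in control libraries. The RSGL differences of COX7B and COX8A were -0.02 and -0.03.

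In the comparison of BSGL with control, 0 of the 58 subunits were called by limma after adjustment, against 0.0861% of all genes tested, which is 11 genes (0.047% higher and 0.0391% lower). At an unadjusted p under 0.05 there were 4 subunits, against 6.71% of all genes, and the weighted fit to recovered fragments (voom) also called 0. The smallest adjusted p was 0.422. The 4 were NDUFC1, UQCRH, NDUFB2 and NDUFB6, all higher in BSGL, with differences of 0.26, 0.17, 0.14 and 0.10, and were named for that reason. The BSGL and control libraries did not overlap for 5 subunits (8.62%), against 12.8% of all genes, with 5 higher (7.16% of all genes) and 0 lower (5.63%). NDUFC1, an accessory subunit of the membrane arm, had 21.4, 19.7 and 21.9 FPKM in BSGL and 18.7, 16.3 and 17.2 FPKM in control libraries. It overlaps NAA15 on the opposite strand, which stood at 21.77 FPKM in BSGL and 21.65 FPKM in control libraries.

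Of the 58 differences of BSGL from control 46 were above 0, with a median of 0.04 against 0.005 over all genes. The share of all genes above 0 was not counted. Over all tested genes the median was 0.06 for those of up to 600 bases. It was 0.02 for 600 to 1000 bases and 0.005 for 1000 to 1500 bases. The part of gene length in the count of 46 was not tested. For the core subunits of the written rule the intervals differed in width. They ran from -0.01 to 0.14 for SDHA, from -0.06 to 0.11 for SDHB, from -0.06 to 0.10 for UQCRFS1 and from -0.09 to 0.04 for NDUFV1. For CYC1 the interval was -0.13 to 0.06, for COX4I1 -0.07 to 0.05 and for UQCRC1 -0.03 to 0.12. It was widest for COX5A, from -0.09 to 0.24. Several of these intervals hold differences as large as some called under RSGL, such as 0.09 for COX6A1. For the most variable subunit, NDUFB1, the interval ran from -0.78 to 1.04, so that for it a large change in either direction was not detectable. These intervals describe the precision and do not show that the subunits were the same in both groups.

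RSGL and BSGL were given at the same dose and for the same time and were compared directly. The genotype tag differs in this comparison too. Of 58 subunits 17 were called (29.3%, against 54.0% of all genes), 3 higher (26.5% of all genes) and 14 lower (27.5%) in RSGL, or 13 lower without COX6B2. The median difference was -0.07, against -0.006 over all genes. Libraries of the 2 compounds did not overlap for 21 subunits (36.2%, against 61.2% of all genes), with 5 higher (29.8% of all genes) and 16 lower (31.4%). This comparison shares the RSGL libraries with the comparison to control. Of the 17, 14 were also called against control, all in the same direction, which is 82.4% of the 17 and 77.8% of the 18. COX5A, NDUFA2, NDUFS4 and UQCRH were called only against control, and COX6B1, NDUFB2 and NDUFC2 only against BSGL, without a test that the 2 differences of a gene were unequal. Against control, NDUFB2 and NDUFC2 had adjusted p of 0.0628 and 0.0528 in limma. The 3 that rose became 1 without RSGL replicate 3 or BSGL replicate 2.

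Against BSGL, SDHA fell by 0.26 (SE 0.0329, limma adjusted p = 0.000119), SDHD by 0.19 (SE 0.0478, 0.00676), UQCRFS1 by 0.28 (SE 0.0355, 0.000111), NDUFS3 by 0.30 (SE 0.0577, 0.00161) and NDUFV1 by 0.14 (SE 0.0289, 0.00213). SDHB rose by 0.17 (SE 0.0378, limma adjusted p = 0.00331). NDUFB2, an accessory subunit of the membrane arm, had 122.8, 138.1 and 134.9 FPKM in RSGL, against 158.5, 162.5 and 155.1 FPKM in BSGL libraries. It fell by 0.27 against BSGL (SE 0.0522, limma adjusted p = 0.00179). NDUFC2 had 5.02, 4.61 and 6.55 FPKM in RSGL, against 7.76, 6.29 and 6.36 FPKM in BSGL libraries, which overlapped. Its call, at an adjusted p of 0.0467, was lost under 15 of 24 alternatives, including the omission of any library except RSGL replicate 3, with adjusted p from 0.00299 to 0.151. CYC1 and UQCRC1 differed between the compounds by 0.03 and 0.01, with intervals of -0.06 to 0.13 and -0.07 to 0.08.

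Subunit levels also varied together between libraries of 1 group, with a wider spread for short genes. The 58 subunits had a median gene length of 1138 bases, against 3609 over all genes tested. The within-group standard deviation of log2(FPKM + 1) had a median of 0.151 for the 14 subunits of up to 600 bases and of 0.08 for the other 44. Across the 58 genes, which share these libraries, Spearman's rho between this spread and length was -0.38, given as a description. Within its group, RSGL replicate 3 held the highest value of 46 of the 58 subunits, BSGL replicate 1 of 32 and control replicate 3 of 47. RSGL replicate 1 held the lowest value of 42 and control replicate 2 of 33. The subunits' median deviation from the mean of 9 libraries was -0.11 in RSGL replicate 1 and 0.09 in control replicate 3. With the trend with length removed, these were still -0.07 and 0.07. Some longer genes varied widely too, such as UQCR11 of 1335 bases (within-group standard deviation 0.239) and UQCRB of 5223 bases (0.148).

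NDUFB1, whose gene of 420 bases makes a small accessory subunit of complex I, had 27.4, 47.9 and 59.0 FPKM in RSGL, 74.6, 47.6 and 55.0 FPKM in BSGL, and 46.4, 39.3 and 80.9 FPKM in control libraries. The highest library was 2.15 times the lowest in RSGL, 1.57 times in BSGL and 2.06 times in control. The same libraries stood out over all 762 tested genes of up to 600 bases. Their median deviations from the mean of 9 libraries were -0.15, -0.01 and 0.11 in RSGL, 0.14, -0.01 and 0.02 in BSGL, and -0.05, -0.07 and 0.09 in control libraries. For genes of 2500 to 4000 bases no library deviated by more than 0.01. The part of gene length in the differences between groups was not tested beyond removing the trend with length, after which 6 subunits rose and 14 fell under RSGL.

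**Figure D4:**
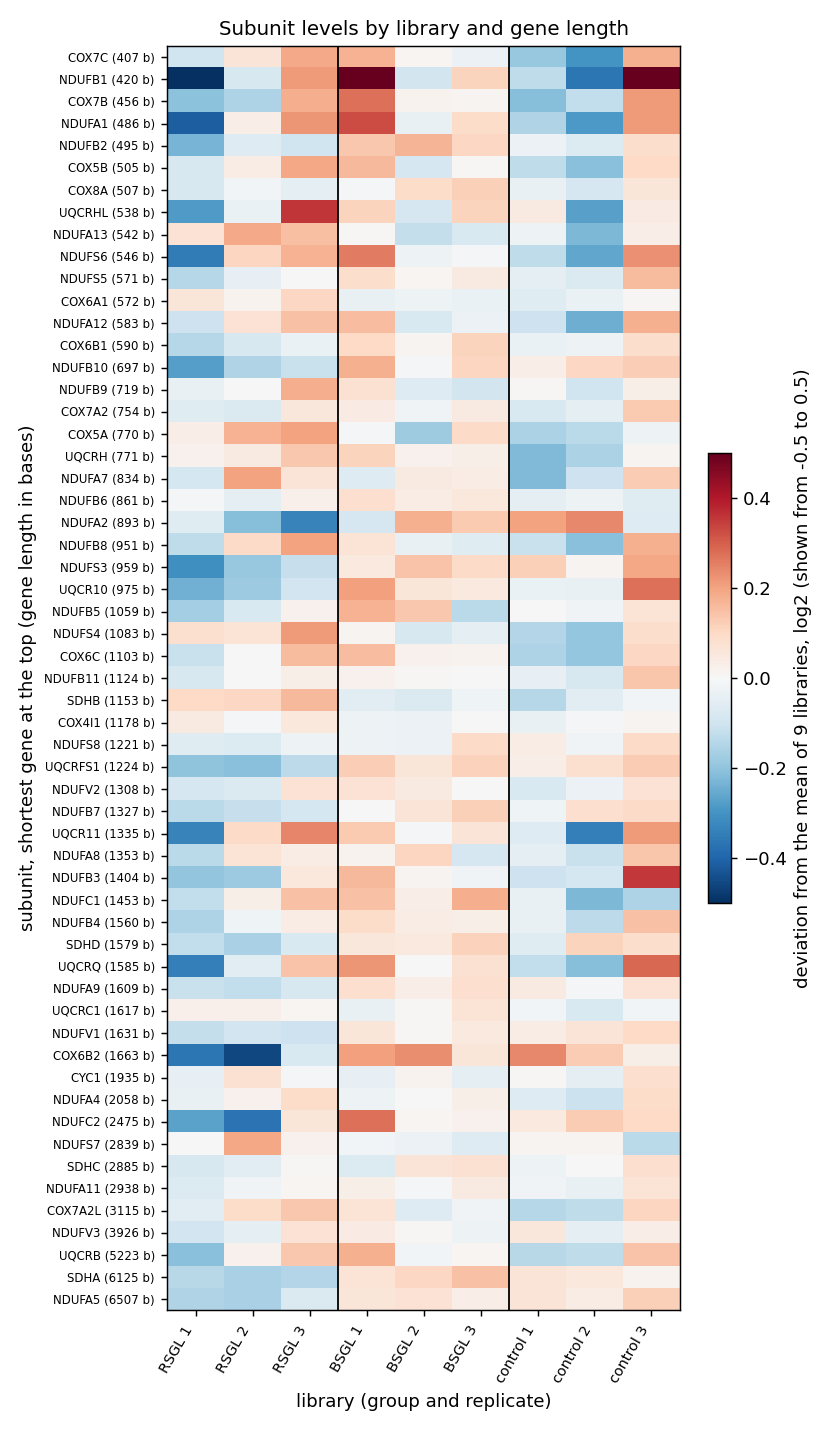
Deviation of log2(FPKM + 1) from the mean of 9 libraries for 57 of the 58 subunits (rows, shortest gene at the top) in each library (columns, RSGL, BSGL and control), with red above and blue below the mean. The shortest genes share a pattern by library, high in RSGL 3, BSGL 1 and control 3 and low in RSGL 1 and control 2.

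Assembly factors insert cofactors and join the subunits without staying in the complex. Of 19 complex I assembly factors tested 6 rose and 5 fell (57.9% called, near the 54.8% of all genes). TMEM126B, which builds the membrane arm, rose to 37.0 ± 2.41 FPKM in RSGL, against 24.9 ± 0.294 FPKM in control libraries (SD, n = 3 each; limma adjusted p = 6.96e-06). FOXRED1, an oxidoreductase-like factor needed for complex I, fell to 8.07 ± 0.478 FPKM, against 10.5 ± 0.195 FPKM in control libraries (limma adjusted p = 0.000188). SDHAF4, which helps to join flavinated SDHA to SDHB, had 14.1, 16.2 and 15.3 FPKM in RSGL, 9.22, 6.96 and 7.88 FPKM in BSGL, and 8.71, 8.73 and 10.1 FPKM in control libraries. SDHAF4 rose by 0.67 (SE 0.0933, limma adjusted p = 0.000219), more than any subunit of complex II changed.

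Of 4 complex II factors 2 rose and 0 fell, against 54.8% of all genes called, the other being SDHAF3 with 0.10, whose call was lost under 19 of 24 alternatives, including the omission of any 1 library (adjusted p 0.0599 to 0.154 there and 0.0313 to 0.271 in all). Of 6 complex III factors 2 rose and 0 fell, which is 33.3% called, against 54.8% of all genes (27.2% of all genes rose). TTC19, which is needed for complex III maintenance around UQCRFS1, rose by 0.55 (SE 0.0386, limma adjusted p = 1.56e-06). BCS1L, which inserts UQCRFS1, rose by 0.23 and was named after its values were seen. TTC19 stood at 15.6 ± 0.487 FPKM in RSGL and 10.3 ± 0.25 FPKM in control libraries (SD, n = 3 each). Of 22 complex IV factors 1 rose and 8 fell (40.9% called, against 54.8% of all genes). CMC1, a chaperone of early complex IV assembly, rose by 0.25 and COX20, a chaperone of the mitochondrially made subunit COX2, fell by 0.47 (limma adjusted p = 0.0112 and 0.00111).

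Of 16 ATP synthase subunits from nuclear genes 1 rose and 6 fell under RSGL (43.8% called, against 54.8% of all genes). Their median of -0.15 was -0.07 without RSGL replicate 1 and -0.06 without control replicate 3. Both subunits that form the catalytic ring fell, ATP5B by 0.20 and ATP5A1 by 0.19, as did ATP5C1 in the central stalk by 0.26. ATP5B, ATP5A1 and ATP5C1 were named after their values were seen. ATP5F1, of the peripheral stalk, fell by 0.27 (SE 0.0435, limma adjusted p = 0.000462), and ATP5O rose by 0.11, a call lost under 5 of the alternatives (adjusted p 0.0125 to 0.146). Those 5 included leaving out RSGL replicate 1 (0.0589) or control replicate 1 (0.0673). Of the 13 mRNAs of the mitochondrial genome 2 rose and 7 fell (69.2% called, against 54.8% of all genes), with a median of -0.36, or -0.23 without RSGL replicate 1. COX3, a core subunit of complex IV, fell to 3266 ± 71.6 FPKM in RSGL, against 5554 ± 176 FPKM in control libraries (SD, n = 3 each), and ND4 of complex I rose by 0.27. The 2 that rose became 4 with the gene-length trend removed and 1 with quantile scaling.

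Among 9 electron carriers and related genes 3 rose and 2 fell under RSGL (55.6% called, near the 54.8% of all genes), and 1 fell without RSGL replicate 1 or 2 or control replicate 3. ETFA, a flavoprotein that feeds electrons from fatty acid oxidation into the chain, stood at 187.3 ± 6.63 FPKM in RSGL and 120.8 ± 3.84 FPKM in control libraries (SD, n = 3 each). It rose by 0.63 (SE 0.035, limma adjusted p = 3.08e-07). AIFM1, which helps to import respiratory subunits, fell by 0.16. Among 11 genes of coenzyme Q synthesis 1 rose and 5 fell (54.5% called, near the 54.8% of all genes), with COQ5 higher by 0.28 and ADCK3, also named COQ8A, lower by 0.77 (limma adjusted p = 0.000353 and 3.14e-05). With a filter of 5 FPKM 3 of them fell.

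Of 16 regulators of respiratory gene transcription 2 rose (1 with a filter of 5 FPKM) and 9 fell under RSGL (68.8% called, against 54.8% of all genes), with a median of -0.16. These include TFB1M, higher, and PPARGC1A, lower, which passed the filter through 1 side of the comparison only, and 1 rose and 8 fell without them. ESRRA, a nuclear receptor that acts with PGC-1 coactivators, rose to 37.6 ± 2.42 FPKM in RSGL, against 28.9 ± 0.689 FPKM in control libraries (SD, n = 3 each; limma adjusted p = 7.35e-05). NRF1 had 4.69, 4.69 and 4.49 FPKM in RSGL, 5.65, 6.33 and 6.25 FPKM in BSGL, and 5.98, 6.30 and 5.82 FPKM in control libraries, and fell by 0.32. GABPA fell by 0.44 and YY1 by 0.15, and TFAM, which packages and transcribes mitochondrial DNA, fell by 0.36. NRF1, GABPA, YY1 and TFAM lie outside the written rule and were named after their values were seen. Whether they bear on the subunits was not tested. PPARGC1A, the coactivator PGC-1 alpha, stood at 0.584, 0.536 and 0.459 FPKM in RSGL and 0.957, 1.10 and 1.19 FPKM in control libraries. It passed the filter only through BSGL and control libraries, so its test after that filter is no support for a difference. Its difference was -0.45, and with all genes kept the limma adjusted p was 0.00155.

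For comparison, 5 of 72 mitochondrial ribosome genes rose and 28 fell under RSGL (45.8% called, against 54.8% of all genes). Their median of -0.08 was -0.03 without RSGL replicate 1 or control replicate 3, and 3 rose with no filter or with scaling to a common sum. The largest called changes were in MRPL24, by 0.33, and MRPL20, by -0.38. Of 79 cytosolic ribosome genes 26 rose and 2 fell, which is 35.4% called, against 54.8% of all genes (27.2% higher and 27.6% lower). Their median was 0.13, and RPL22L1 changed by 0.42 and RPS10 by -0.73. The 26 became 16 without RSGL replicate 3, 13 without control replicate 1, 14 without control replicate 2, 42 without control replicate 3 and 16 with quantile scaling. Many ribosomal genes are short and have pseudogene copies, and the part of either in these counts was not tested. Against control, BSGL changed 0 of the genes in each of these lists at an adjusted p under 0.05 in limma. Subunits and lists were set side by side by counts only, and no difference between lists was tested.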

How the data were processed

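RNA was sequenced in 9 libraries, 3 each for RSGL, BSGL and control. Per the labels' protocols, total RNA extracted with TRIzol went into NEBNext Ultra libraries. Tools named in the submitters' processing notes, without roles, are DESeq2 1.16.1, HISAT2 2.0.5 and featureCounts 1.5.0-p3. No source used here gives the strand setting. Per the file headers, the deposited values are FPKM, computed by the authors. Multiplied by gene length, 100% of values under 300 fragments came within 0.01 of whole fragments in each library.

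The 12775 genes that reached 1 FPKM in 3 or more libraries were tested as log2(FPKM + 1) by limma 3.58.1 (R 4.3.3; statmod 1.5.0), using 1 term per group over all 9 libraries, trended and robust empirical Bayes, and Benjamini-Hochberg adjustment over all genes. Calls need an adjusted p under 0.05. Errors are SE of the model or SD, and intervals are 95% intervals. The pipeline was tested on simulated data, where it called 27.3% of genes with a log2 change of 0.25, 94.0% with 0.5 and 100% with 1. With a gene-length trend added, it called 7.6% of genes with a change of 0.25. A subunit not called may thus have changed by that much. The simulation made 154 calls in all, far fewer than RSGL against control gave here, so these shares need not hold for the real libraries. Since the values are FPKM, no count model was the main test, and voom on recovered fragments was an alternative.

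Subunits and lists were chosen with earlier results of these data known. Lists were matched by NCBI gene ID. By a written rule, values per library are given for the called subunits with the largest rise and fall in each complex. The same holds for 9 core subunits (of which NDUFS1 lies on an alternate sequence and is not a member) and for isoform pairs. From each other list the largest called rise and fall are named, only some of them with levels. Other genes were named outside this rule. Pattern matches on alternate sequences (6) and pseudogenes (59) were left out. Of the 64 genes, 13 overlap another gene at 1 FPKM or more, 10 of them on the opposite strand. The readthrough gene NDUFC2-KCTD14, at 0 in 8 libraries, shares sequence with NDUFC2. The values of 1 tested subunit are not reported here, and it is left out of the figures but kept in counts, sums and medians. The alternatives changed the pseudocount, filter, scaling, genes tested, model options, replicate block, gene-length trend and libraries included.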

Additional observations from a re-analysis of the deposited data

Results flagged for a closer look

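Of the subunit genes that the table places on alternate sequences, 2 showed values in single treated libraries of at least 1 FPKM and over 3 times the highest control library. They were used in no comparison. UQCRC2, a core subunit of complex III, was at 8.76 FPKM in RSGL replicate 3, 13.5 FPKM in BSGL replicate 2 and 9.23 FPKM in BSGL replicate 3. In the remaining treated libraries it was at 1.77, 0.695 and 0.395 FPKM, and in control libraries at 0.823, 0.38 and 0.476 FPKM. NDUFA6, an accessory subunit of complex I, was at 10.7 FPKM in RSGL replicate 1, against 0.648 to 1.00 FPKM in the other 8 libraries. NDUFS1, a core subunit of complex I on another alternate sequence, ranged from 0.24 to 6.83 FPKM over the 9 libraries, with 0.280, 5.68 and 2.59 FPKM in RSGL, 4.63, 0.240 and 1.52 FPKM in BSGL, and 6.83, 4.26 and 0.305 FPKM in control libraries. Replicates of 1 group differed by at most 2.15 times for the subunits that passed the filter.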

How the results depend on the processing

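Over 24 alternatives, 10 of the 18 subunits called in RSGL against control and 12 of the 17 called in RSGL against BSGL kept their call (23 alternatives for COX6B2, which is absent under a filter of 5 FPKM), and none reversed. Without COX6B2, an omission chosen after the data were seen, these were 9 of 17 and 11 of 16. The 6 that rose against control became 2 with no filter and 1 to 9 when 1 library was left out (1 without RSGL replicate 3, 2 without control replicate 1 or 2, 9 without control replicate 3), and the 12 that fell ranged from 10 to 16. The 3 that rose against BSGL became 5 with quantile scaling, 5 with the gene-length trend removed and 5 with the replicate block, and 1 to 4 when 1 library was left out (1 without RSGL replicate 3 or BSGL replicate 2). The 14 that fell ranged from 12 to 16. BSGL against control gave 0 under every alternative. Left-out libraries moved the median difference from -0.07 to 0.04 for RSGL against control, 0.01 to 0.09 for BSGL against control and -0.12 to -0.03 for RSGL against BSGL, beside a spread of library medians of 0.0762. Labels do not say whether same-numbered libraries shared a culture or day. The r of their deviations, -0.212 to 0.121, cannot settle this with so few libraries per group. The replicate block gave 6 higher and 13 lower against control. Scaling to a common sum shifted the median of all genes by less than 0.1. The causes were not tested. Low fragment numbers limit COX6B2 and NDUFA4L2.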
